A study of Mus musculus with 6 samples.

Results

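The 9 genes described here encode an actin and 8 proteins that bind or remodel actin filaments: Actg1, Arpc1a, Arpc4, Arpc5, Capg, Capzb, Coro1a, Coro1b and Pfn1. They were taken by symbol from the deposited comparison of JHT and WT mice, and all 9 had a row among its 1018 genes (the listed genes). Bulk RNA sequencing was performed on CD8+ T cells of the spleen stained by an MHC tetramer that carries the M45 peptide of murine cytomegalovirus (MCMV), sorted 7 days after infection. The WT group held 3 libraries from wild-type mice and the JHT group 3 libraries from B cell-deficient JHT mice, whose immunoglobulin heavy chain locus has lost its JH segments in the germline, so that no B cells form. All mice were adults on the C57BL/6J background, all were infected with MCMV, and the study describes its WT controls as littermates. Equal numbers of tetramer+ cells were sorted from each group. The question was which genes differ in virus-specific CD8+ T cells when B cells are missing.

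Actin monomers polymerize into filaments that give a T cell its cortex, drive its crawling and build the contact zone with a target cell. Profilin delivers monomers to growing ends, the Arp2/3 complex starts new branches on existing filaments, capping proteins close the fast-growing ends, and coronins help take branched networks apart. Cytotoxic T cells remodel actin at the immunological synapse when they release their granules. Actin monomers also hold back the cofactors of the serum response factor SRF, a transcription factor that binds the CArG box and drives many actin genes.

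The promoters of Actg1, Arpc4 and Capg are shown because the first and second held a CArG box and the third belongs to the gene with the largest fold of group means. In the RefSeq promoters of GRCm38.p6, which run from 250 bases before to 50 bases after a transcript start, 8 of the 9 genes matched 9 promoters (Coro1a had 2). Such a start need not be the outermost of its gene. The windows of Capg, Capzb and Coro1a lay wholly inside the gene spans given below. The windows are chr11:120348446-120348745 on the minus strand for Actg1, chr6:113377863-113378162 on the plus strand for Arpc4 and chr6:72549397-72549696 on the plus strand for Capg. Each is written 5′ to 3′ along the gene, and capitals mark the CArG box.
Actg1: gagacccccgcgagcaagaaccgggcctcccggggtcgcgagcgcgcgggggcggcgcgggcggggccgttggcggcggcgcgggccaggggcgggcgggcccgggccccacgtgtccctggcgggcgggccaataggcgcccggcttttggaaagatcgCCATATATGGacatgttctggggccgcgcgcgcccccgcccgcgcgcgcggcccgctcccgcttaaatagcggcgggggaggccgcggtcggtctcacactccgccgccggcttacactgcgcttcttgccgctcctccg
Arpc4: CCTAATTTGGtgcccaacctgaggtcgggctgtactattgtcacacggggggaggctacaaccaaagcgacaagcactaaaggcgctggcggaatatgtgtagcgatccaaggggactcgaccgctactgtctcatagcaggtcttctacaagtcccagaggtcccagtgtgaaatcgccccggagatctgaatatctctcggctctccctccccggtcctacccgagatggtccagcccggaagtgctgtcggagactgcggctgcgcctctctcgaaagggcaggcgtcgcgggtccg
Capg: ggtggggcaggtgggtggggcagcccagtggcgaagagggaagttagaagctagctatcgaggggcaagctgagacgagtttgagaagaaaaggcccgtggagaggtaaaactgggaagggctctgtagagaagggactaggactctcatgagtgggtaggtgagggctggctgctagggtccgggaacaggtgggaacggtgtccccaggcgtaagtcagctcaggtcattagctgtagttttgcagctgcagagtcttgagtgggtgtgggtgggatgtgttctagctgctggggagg
A CArG box was found in 2 of the 9 promoters and in 1.63% of the 32851 promoters of the table. In Actg1 it lay at positions -90 to -81 relative to the start, and in Arpc4 at -250 to -241, at the edge of the window. The E-box CACGTG was found in Actg1 and Arpc5 (2 of 9, against 7.15% of all promoters). The GC box GGGCGG, searched on both strands, was found in 6 of 9 promoters against 35.7% of all, with 6 copies in Actg1, and the ETS core CCGGAA in 4 of 9 against 14.9%. None of the 9 held the letters TATAAA, against 13.6% of all promoters. The Capg window held none of these 5 motifs, and the bases before the outer start of the Capg span (72544391) were not searched. A match is a description of letters and was not tested for factor binding.

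The deposited values are corrected by the authors for the length of each gene and for the library, so levels can be set side by side between genes, although the sources used here do not say whether they are RPKM or TPM. The table holds genes chosen for a difference in these very libraries. The paper called 1018 genes by an adjusted p and by a minimum fold change in either direction, and the table has as many rows. In 100% of them the JHT and WT libraries did not overlap, and 96.6% were higher in JHT mice. All 9 actin genes were higher and did not overlap, a count to be read against those shares. A fold at least as large as that minimum was likewise fixed by the choice of genes. The values therefore describe how evenly and in which libraries these genes differed, how far beyond that minimum, and how they stood relative to one another.

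Whole reads could be recovered from the ratios between libraries, and they give the depth behind each value. The listed genes together held 1909193 to 2888084 reads in WT and 4040416 to 5742545 in JHT libraries, which are not library totals. The 8 actin genes other than Capg had at least 611 reads in every library. WT-1 stood apart: its median value over the listed genes was 7.63, whereas the other WT libraries had 11.6 and 10.8 and the JHT libraries 25.0 to 32.6, and it was the lowest WT library for 9 of the 9 actin genes, against 65.8% of the 983 listed genes that were higher in JHT mice. The fold of each of the 9 genes is therefore also given without WT-1. Of 12 CD8 T cell markers, Lck had a value in the table and was higher in JHT mice (288 ± 98.7 in WT and 660.3 ± 107 in JHT, SD, n = 3 each). Among 62 genes that mark other cell types (7 lists), 1 had a value, the erythroid gene Bpgm, at 1.65 to 6.14 in WT and 10.2 to 13.9 in JHT libraries, and its part in the results was not tested. A marker without a value may have been expressed without passing the selection. In bulk samples, a different mix of cells within the sorted gate and a different amount of RNA per cell cannot be told apart.

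**Figure D1:**
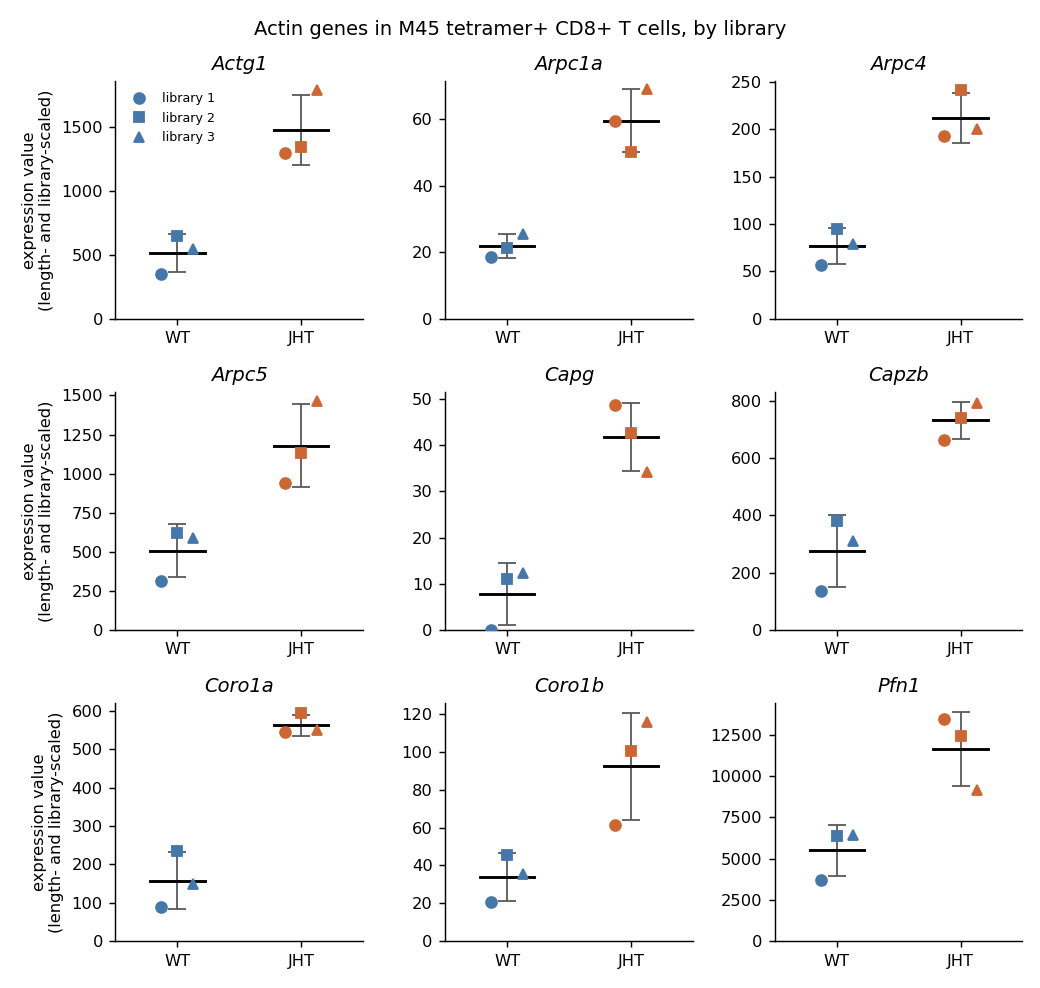
Expression value (length-scaled, linear axis from 0) of the 9 actin genes in each of 3 WT and 3 JHT libraries. Points are libraries, horizontal bars are group means and error bars are SD; the JHT values lie above the WT values in every panel, and WT-1 (blue circle) is the lowest library in each.

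Actg1 encodes gamma-actin, a cytoplasmic actin that forms filaments in non-muscle cells. Its values, here and below in the order of the title numbers 1 to 3, were 350.2, 646 and 546 in WT and 1297, 1347 and 1792 in JHT libraries. The lowest JHT library was 2.01 times the highest WT library, and JHT-3 stood above the other 2 JHT libraries. The mean rose from 514 ± 150.3 to 1479 ± 272 (SD, n = 3 each), or 2.88-fold, with a log2 change of 1.55 ± 0.33 (SE; limma adjusted p = 1.19e-05), and the fold was 2.48 without WT-1. Actb, the gene of the other cytoplasmic actin, was not in the table and is not analysed here.

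Reads of Actg1 may have been shared with its retrocopies. Of the 75-base stretches of its longest coding transcript, 54.5% also occurred in the transcripts of other annotated genes, and 43.5% of the 150-base stretches did. Of the 10 genes that shared a 75-base stretch, 9 were pseudogenes, with Gm12715 taking the largest part (47.8% of stretches), and Actb shared none. The value of Actg1 is uncertain to that extent, in WT and JHT libraries alike. Actg1 lies on the minus strand of chromosome 11, from 120345690 to 120348542 (GRCm38, GENCODE M21).

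Pfn1 encodes profilin 1, which binds actin monomers and hands them to growing filament ends. It had the second highest value of the table in all 6 libraries, at 3721, 6368 and 6459.7 in WT and 13458, 12426 and 9148 in JHT libraries. JHT-3 was the lowest JHT library here, whereas it was the highest for Actg1. The mean rose from 5516 ± 1555 to 11677 ± 2250.5 (SD, n = 3 each), 2.12-fold and a log2 change of 1.11 ± 0.24 (SE; limma adjusted p = 1.91e-05). It was the smallest fold of the 9 genes, and 1.82-fold without WT-1. Pfn1 lies on chromosome 11 (70651850 to 70654644, minus strand), and no 75-base stretch of its transcript occurred in another annotated transcript.

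The Arp2/3 complex nucleates branched filaments, and 3 of its 10 genes on the wider list had a value, all higher in JHT mice. Arpc1a encodes an ARPC1 subunit, for which Arpc1b is the alternative gene. Arpc1a had values of 18.4, 21.3 and 25.6 in WT and 59.6, 50.1 and 69.03 in JHT libraries. The groups were separated by 1.96-fold between their nearest libraries, and this gene had the smallest spread among WT libraries (coefficient of variation 16.6%). The fold was 2.74, or 2.54 without WT-1, with a log2 change of 1.41 ± 0.40 (SE; limma adjusted p = 0.00066).

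Arpc4 encodes the ARPC4 core subunit. Its values were 56.3, 94.8 and 79.2 in WT and 193, 242 and 199.9 in JHT libraries. The fold was 2.76, or 2.43 without WT-1, with a log2 change of 1.48 ± 0.38 (SE; limma adjusted p = 0.000268). Arpc4 shares 283 exonic bases (12.2%) with Ttll3 on the same strand, and 9.52% of the 75-base stretches of its transcript occurred in Ttll3 as well, so a small part of its reads could belong to either gene. Arpc5 encodes the ARPC5 subunit, and it had values of 310.1, 622 and 590.0 in WT and 938, 1133 and 1464 in JHT libraries. Its fold of 2.32 fell to 1.94 without WT-1, and its log2 change was 1.26 ± 0.33 (SE; limma adjusted p = 0.000304).

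The 3 genes stood at unequal RNA values. Arpc1b and Arpc5l were not in the table and are not analysed here, so these values are of single genes and not of subunits. On the length-scaled values, Arpc1a was 0.0594, 0.0341 and 0.0434 of Arpc5 in WT and 0.0635, 0.0443 and 0.0472 in JHT libraries. Arpc4 was 0.182, 0.152 and 0.134 of Arpc5 in WT and 0.206, 0.213 and 0.137 in JHT libraries. Both ratios overlapped between the groups, as did Arpc4 to Arpc1a. The order Arpc5, Arpc4, Arpc1a held in all 6 libraries. Arpc1a lies on chromosome 5 (145083830 to 145108761), Arpc4 on chromosome 6 (113378115 to 113390448) and Arpc5 on chromosome 1 (152766542 to 152775597), each on the plus strand.

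Capg had the largest fold of group means of the 9 genes, with and without WT-1, and the largest coefficient of variation in WT mice (87.0%). It encodes a protein of the gelsolin family that caps filament ends in response to calcium and is abundant in macrophages. Its values were 0, 11.01 and 12.3 in WT and 48.6, 42.6 and 34.2 in JHT libraries, with the 0 in WT-1. The recovered reads behind them were 0, 520 and 617 in WT and 2229, 2518 and 1549 in JHT libraries. At this depth, 3 reads in WT-1 would have given a value of 0.0727, which is the limit that a count of 0 allows there for counting error only.

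The fold of Capg means was 5.37 with all libraries and 3.58 without WT-1. Its log2 change of 2.96 ± 0.39 (SE; limma adjusted p = 8.81e-12) was 1.74 without WT-1. This SE and p-value rest on a variance pooled over the genes of the table. They do not carry Capg's own wide spread in WT mice. The log2 change also moved with the pseudocount, to 4.11 with 0.1 and to 1.62 with 10, where Coro1a was higher at 1.87. Capg ranked 8th of 1018 genes by log2 change with all libraries. None of the 12 monocyte and macrophage markers and none of the 8 dendritic cell markers had a value in the table. Because the table holds selected genes only, this does not show whether they were expressed. The libraries came from cells sorted as M45 tetramer+ CD8+ T cells, a gate meant to leave such cells out, and their part in the Capg difference was not tested. Capg lies on chromosome 6 (72544391 to 72562983, plus strand), and no 75-base stretch of its transcript occurred elsewhere in the annotation.

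Capzb encodes the beta subunit of the heterodimeric capping protein, which closes fast-growing filament ends. Its values were 136, 380.0 and 311 in WT and 661, 741 and 791 in JHT libraries, and WT-1 reached 0.394 of the mean of WT-2 and WT-3. The mean rose from 276 ± 126 to 731 ± 65.5 (SD, n = 3 each). The fold was 2.65, or 2.12 without WT-1, with a log2 change of 1.53 ± 0.35 (SE; limma adjusted p = 5.16e-05). Capza1 and Capza2, genes of the alpha subunit, were not in the table and are not analysed here. Capzb lies on chromosome 4 (139192899 to 139291818, plus strand).

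Coro1a encodes coronin 1A, the coronin of blood cells, which supports survival and migration of naive T cells and whose loss causes T cell deficiency in mice. Its values were 88.8, 236 and 148 in WT and 544, 595 and 551 in JHT libraries. The JHT libraries lay close together, with a coefficient of variation of 4.86%, the smallest of the 9 genes, against 46.9% in WT mice. The lowest JHT value was 2.31 times the highest WT value. The mean rose from 158 ± 73.9 to 563 ± 27.4 (SD, n = 3 each), 3.58-fold and 2.94-fold without WT-1, with a log2 change of 1.94 ± 0.36 (SE; limma adjusted p = 1.24e-06). Coro1a lies on chromosome 7 (126699773 to 126707787, minus strand).

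Coro1b encodes coronin 1B, which competes with the Arp2/3 complex at branches and has been studied at the leading edge of migrating cells. Its values were 20.6, 45.6 and 35.5 in WT and 61.1, 100.3 and 116 in JHT libraries. The gap between the groups was the smallest of the 9 genes, with the lowest JHT library (JHT-1) at 1.34 times WT-2. The fold was 2.73, or 2.28 without WT-1, with a log2 change of 1.44 ± 0.40 (SE; limma adjusted p = 0.000507). Coro1b (chromosome 19, 4148619 to 4154035, plus strand) shares 432 exonic bases (13.5%) with Ptprcap, a gene of lymphocytes on the same strand that encodes a CD45-associated protein. Of the 75-base stretches of the Coro1b transcript, 19.7% also occurred in Ptprcap, and the part of Ptprcap reads in the Coro1b values was not tested.

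All 9 genes had an adjusted p below 0.05 in limma when adjusted over the whole table, as did 100% of the listed genes, so this call sets no gene apart. Because of the selection, p-values from this table overstate the evidence for any single gene. With the deposited scaling, the limma SE of a gene is also pooled over the table and is not that gene's own spread between libraries. With 3 against 3 mice, the exact two-sided permutation test gave p = 0.1 for each of the 9 genes, the smallest it can give. Groups that do not overlap always give this value. As 100% of the listed genes did not overlap, the selection had fixed it for every one of them. The median log2 change was 1.48 for the 9 genes and 1.47 for all 1018. By fold of means, 2 of the 9 genes (Capg and Coro1a) lay above 2.93, the median of the 983 listed genes that were higher in JHT mice. Without each library in turn, all 9 still passed. The filter on low values then kept 1017 listed genes without a WT library and 1008 without a JHT library. Of these, 98.1% passed without WT-1 (94.8% passed and were higher in JHT mice), 99.3% (96%) without WT-2 and 97.6% (94.3%) without WT-3. The shares were 97% (93.8%) without JHT-1, 98.3% (94.9%) without JHT-2 and 94.8% (91.6%) without JHT-3. The median log2 change of the 9 genes was 1.27 without WT-1.

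**Figure D2:**
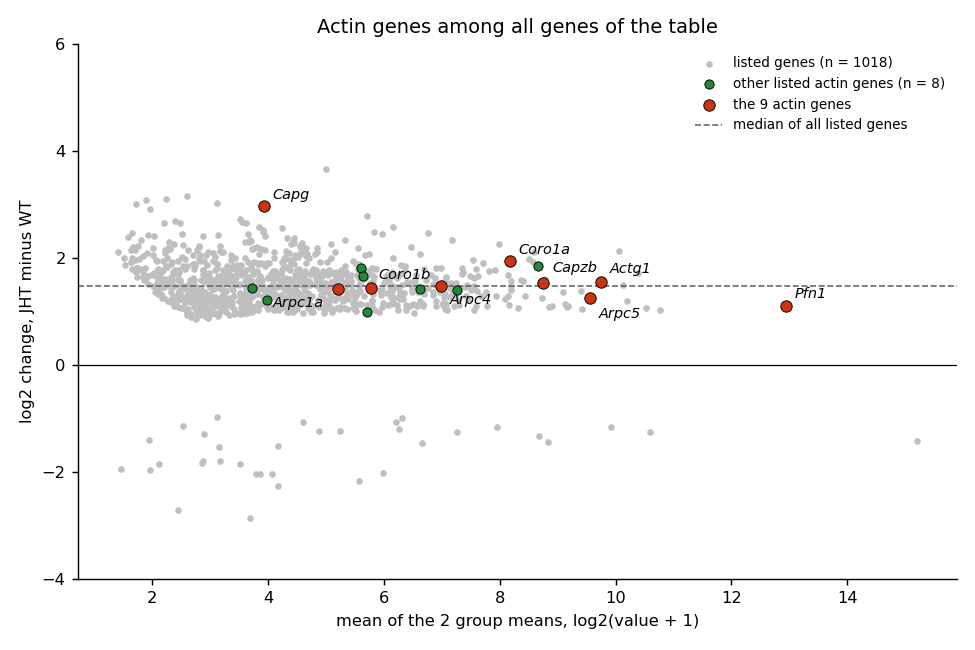
Log2 change (JHT minus WT, on log2(value + 1)) against the mean level of each of the 1018 listed genes (grey), with the 9 actin genes in red and 8 other listed actin genes in green; 1 gene lies outside the plotted range. The dashed line is the median of all listed genes (1.47); of the red genes Capg (2.96) and Coro1a (1.94) lie farthest above it and Pfn1 (1.11) farthest below, and the green genes run from 0.99 for Msn to 1.84 for Tagln2.

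The size and direction of most of these differences depended on how the libraries were scaled to each other. When libraries were rescaled to share 1 median over the listed genes (equal median), 0 of the 9 genes passed in limma, against 5.5% of the listed genes (2.06% passed and were higher in JHT mice). Capg alone of the 9 had an unadjusted p below 0.05 there, as did 13.7% of the listed genes. The log2 changes then were 1.86 ± 0.66 for Capg, 0.42 ± 0.23 for Coro1a, 0.02 ± 0.21 for Actg1 and 8.0e-05 ± 0.23 for Capzb (SE). Arpc4, Coro1b, Arpc1a, Arpc5 and Pfn1 turned lower, from -0.042 ± 0.22 for Arpc4 to -0.42 ± 0.26 for Pfn1 (SE). Of the 1018 listed genes, 560 were above 0 with the equal median and 458 below. With quantile normalization, 1 of the 9 passed, against 5.89% of the listed genes (2.55% passed and were higher). It was Actg1, with a log2 change of 0.50 ± 0.09 (SE; limma adjusted p = 0.00061). Quantile normalization sets a value by its rank in the library, so this call restates the ranks of Actg1 given below. At an unadjusted p below 0.05, 4 of the 9 passed with quantile normalization (Actg1, Arpc5, Capg and Coro1a), against 11.4% of the listed genes. Of the 8 genes other than Actg1, 6 stayed above 0, Pfn1 was at 0 and Arpc1a turned lower, at -0.03 ± 0.27 (SE). Among all 1018 listed genes, 540 were above 0 with quantile normalization and 474 below. Both rescalings take away a rise shared by the listed genes by construction, since these were selected and mostly higher, and so they do not show which scaling is right.

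**Figure D3:**
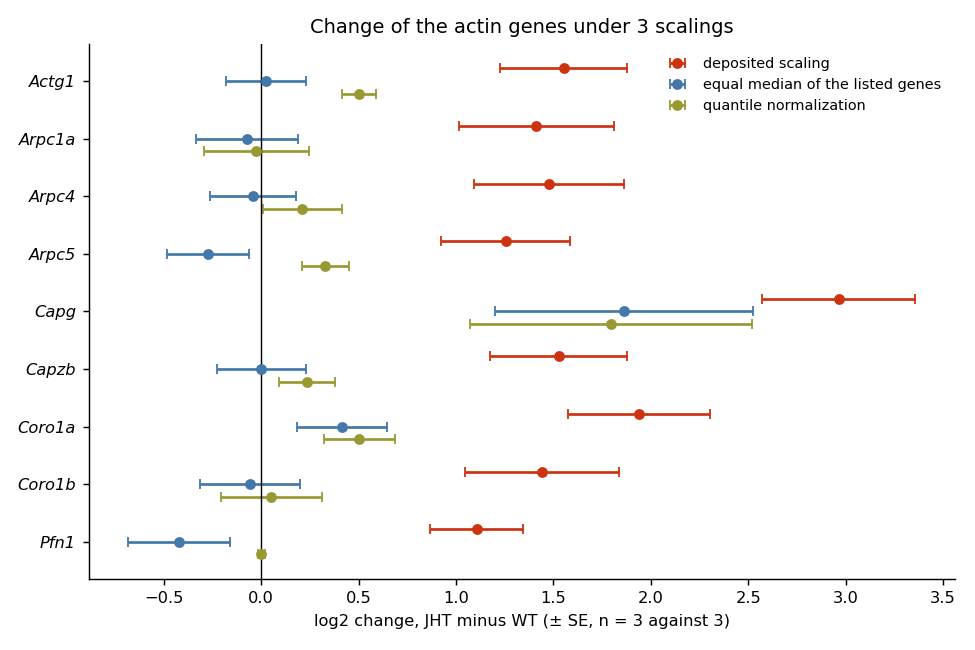
Log2 change of the 9 actin genes (JHT minus WT, points, with SE as bars, 3 libraries against 3) with the deposited scaling, with an equal median, and with quantile normalization. With the deposited scaling all 9 lie between 1.11 and 2.96. With the equal median they run from -0.42 for Pfn1 to 1.86 for Capg, with 5 of the 9 below 0 (458 of the 1018 listed genes). With quantile normalization Arpc1a is below 0 (474 of the 1018 listed genes). The SE is pooled over genes with the deposited scaling, whereas with both rescalings it also carries a gene's own spread.

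Measures taken within a library do not depend on the scaling between libraries. By rank among the listed genes, Actg1 stood at 14, 13 and 14 in WT and at 10, 10 and 9 in JHT libraries, and it was the only 1 of the 9 whose ranks did not overlap between the groups, against 9.23% of listed genes that moved nearer the top in this way. Pfn1 kept rank 2 throughout. Capg ranged from the bottom of WT-1 to ranks 520 (WT-2) and 470 (WT-3), and had ranks 307, 382 and 495 in the JHT libraries. As a multiple of the library's median, none of the 9 genes was separated between groups, against 9.92% of listed genes that were separated and higher in JHT mice. Actg1 was 45.9 to 55.7 times the median in WT and 47.7 to 55.03 times in JHT libraries.

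Ratios between the 9 genes were separated about as often as those between other listed genes. Of 36 ratios between 2 of the genes, 7 (19.4%) did not overlap between the groups, against 22.1% of all pairs of listed genes and 16.6% of pairs in which both genes were higher in JHT mice. Of these 7 ratios, 4 had Capg on top, to Arpc4, Arpc5, Capzb and Pfn1, and 2 had Coro1a on top, to Capzb and Pfn1. The last was Actg1 to Arpc5. The Capg ratios were 0 in WT-1, where Capg had no reads. WT-3 and JHT-3 nearly touched for Capg to Arpc4 (0.156 and 0.171), Arpc5 (0.0209 and 0.0233) and Capzb (0.0397 and 0.0432). Capg to Pfn1 was at most 0.00191 in WT and at least 0.00343 in JHT libraries. Coro1a was 0.652, 0.62 and 0.477 of Capzb in WT and 0.823, 0.802 and 0.696 in JHT libraries. Coro1a was also 0.0239, 0.037 and 0.0229 of Pfn1 in WT and 0.0404, 0.0479 and 0.0602 in JHT libraries. Actg1 was 1.13, 1.04 and 0.926 times Arpc5 in WT and 1.38, 1.19 and 1.22 times in JHT libraries. The coronin pair overlapped, with Coro1a at 4.31, 5.16 and 4.17 times Coro1b in WT and 8.91, 5.93 and 4.75 times in JHT libraries.

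Against the mean of the 8 genes that had reads in every library, Coro1a was the only one of the 8 whose groups did not overlap, when 19.3% of the 1004 listed genes with a value in every library were separated on this measure (12.2% separated and higher in JHT mice). It lay at -0.59, -0.14 and -0.61 (log2) in WT and at 0.11, 0.08 and -0.12 in JHT libraries, a difference of 0.47, although WT-2 (-0.14) and JHT-3 (-0.12) nearly touched. Pfn1 differed by -0.37 and Arpc5 by -0.22, each with overlap, and Pfn1 was pulled down mainly in JHT-3, at 3.93 against 4.74 and 4.46 in JHT-1 and JHT-2. The other 5 genes differed by 0.08 or less in either direction.

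**Figure D4:**
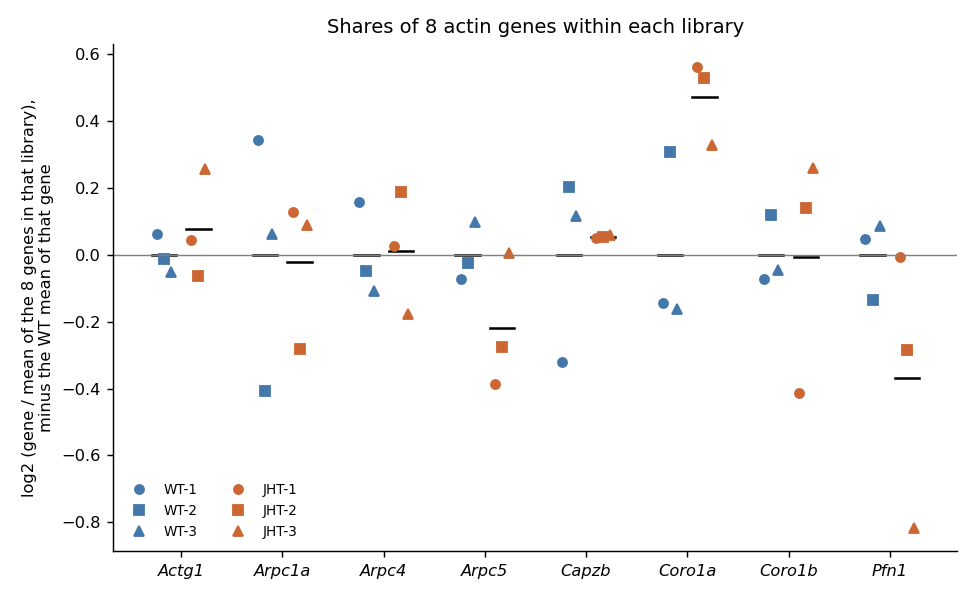
Log2 of each gene over the mean of 8 actin genes in the same library, shown as the difference from that gene's WT mean (points are libraries, black bars are group means). Coro1a lies higher in all 3 JHT libraries, by 0.47 on average, and Pfn1 in JHT-3 lies lowest of all points.

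The wider lists of actin genes held 153 genes in 13 functional groups, and 17 had a value: the 9 above and 8 others. All 17 were higher in JHT mice and passed the limma test, as did 96.6% of all listed genes in that direction. The median log2 change of the 8 others was 1.43. Tagln2, which encodes transgelin 2, a filament-stabilizing protein, had values of 126, 290.03 and 263 in WT and 568, 769 and 1029 in JHT libraries (log2 change 1.84 ± 0.35, SE). Tpm3, a tropomyosin that coats filaments, stood at 17.2, 32.8 and 27.03 in WT and 79.1, 99.9 and 92.3 in JHT libraries (log2 change 1.82 ± 0.40, SE). Tpm3 was the only one of these 8 separated as a multiple of the library's median, at 2.26, 2.83 and 2.51 times in WT and 3.16, 3.54 and 2.83 times in JHT libraries, with WT-2 and JHT-3 nearly touching. The tropomyosin gene Tpm4 rose 2.67-fold. The monomer-binding twinfilin gene Twf2 rose 3.11-fold, and the pointed-end capping gene Tmod3 rose 2.39-fold. The GTPase gene Rhoa, a switch upstream of actin assembly, rose 2.69-fold, and Fermt3, which encodes the integrin activator kindlin-3, rose 2.89-fold.

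Msn, which encodes moesin, a linker of filaments to the membrane, had the smallest log2 change of the 17 with all libraries. It was not the smallest without WT-1 (1.15 against 0.85 for Pfn1) or without JHT-2 (1.24 against 1.05 for Pfn1). Nor was Msn the smallest with a pseudocount of 10 (0.84 against 0.76 for Tmod3). WT-1 was its highest WT library. It stood at 45.02, 38.3 and 26.8 in WT and 81.2, 50.5 and 91.9 in JHT libraries, 2.03-fold, with the nearest libraries 1.12-fold apart. Its log2 change of 0.99 ± 0.40 (SE; limma adjusted p = 0.0132) no longer passed without WT-3, JHT-1 or JHT-3 (limma adjusted p 0.0924, 0.0643 and 0.0759). With the equal median, 4 of these 8 genes were higher and 4 lower, against 560 and 458 of the 1018 listed genes. In limma, 0 of the 8 passed with the equal median (5.5% of the listed genes) or with quantile normalization (5.89%). At an unadjusted p below 0.05, 0 of the 8 passed with the equal median (13.7% of the listed genes) and 1, Tagln2, with quantile normalization (11.4% of the listed genes). No gene of the nucleation-promoting factors (22 genes), formins (12 genes), severing factors (12 genes) or SRF and its cofactors (3 genes) was in the table, and these groups are not analysed here.

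The listed genes outside the 9 whose pattern over the 6 libraries was most like the mean profile of the 9 were Ptpn6, Ndufa9, Ddx41, Aarsd1 and Pitpna, with Pearson r from 0.997 to 0.999. The median r of the 1009 other listed genes was 0.926, since the whole table was chosen for how these libraries differ. Ptpn6, which encodes the phosphatase SHP-1, had values of 13.2, 30.6 and 29.4 in WT and 66.05, 74.1 and 72.6 in JHT libraries. The genes most like Capg were Abhd17a, Trappc3, Nmral1, Acot7 and Pcmt1, with r from 0.982 to 0.996 against a median of 0.831, and all of them were also lowest in WT-1. Abhd17a stood at 3.21, 18.1 and 16.4 in WT and 37.3, 31.6 and 32.5 in JHT libraries. These correlations describe 6 libraries that share the group difference and the low WT-1.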

How the data were processed

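RNA of sorted M45 tetramer+ CD8+ T cells was amplified with a SMART-Seq kit, and Nextera XT libraries were sequenced as paired ends. The authors trimmed adaptors and used CLC Genomics Workbench with default RNA-seq settings on GRCm38 (the sources used here do not name the annotation). The authors' deposited table held 1 never-negative expression signal per gene and library, scaled for gene length and library. It also held columns of the authors' own comparison, which were not used: a deposited difference, fold change (a ratio), p-value with FDR correction, log2 fold change and -log10 p-value. Every listed gene differs between the groups without overlap, and genes outside the table were not analysed here.

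Libraries were grouped by their titles, 1 mouse each. Values were compared on log2(value + 1) with limma 3.58.1 (R 4.3.3), moderating variances along a trend and without covariates. Genes needed a value of 1 in 3 libraries, and p-values were adjusted by Benjamini-Hochberg over all 1018 genes with a threshold of 0.05. With a library left out, 1017 (WT) or 1008 (JHT) genes met this filter and entered the adjustment. The log2(value + 1) scale understates the change of low genes. The procedure was tested on simulated data, in which a part of the genes changed, in both directions. The simulation held no selection of genes by outcome and no low WT-1, so it does not bear on these features. Whole reads were recovered for 1018 genes within a tolerance of 0.001. Alternatives were pseudocounts of 0.1 and 10, no filter, no variance trend, 2 rescalings, the title number as a block, and leaving out each library. Transcripts and positions came from GENCODE M21 and promoters from RefSeq (GRCm38.p6). Transcript stretches of 75 and 150 bases were matched on both strands, and copies outside the annotation were not searched. The members, lists and tests were chosen with earlier results of these data known. The text names the 9 genes, every gene of the wider actin lists with a value, listed markers, and the 5 genes most like the mean profile and the 5 most like Capg; Actg1 retrocopies, overlapping genes and partner genes were named after the values were seen.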

Additional observations from a re-analysis of the deposited data

How the results depend on the processing

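The count of the 9 actin genes that passed (9) stayed at 9 with pseudocounts of 0.1 and 10, without the filter, without the variance trend, with the replicate block and without any 1 library. With an equal median of listed genes in each library, 0 of the 9, 0 of the 17 genes of the wider lists and 56 of the 1018 listed genes passed, and the median log2 change of the 9 reversed to -0.042. With quantile normalization 1, 1 and 60 passed, and the median was 0.24. With the equal median the log2 changes of Arpc1a (-0.074), Arpc4 (-0.042), Arpc5 (-0.27), Coro1b (-0.058), Pfn1 (-0.42), Msn (-0.51), Rhoa (-0.10), Tmod3 (-0.22) and Tpm4 (-0.12) turned lower, and with quantile normalization those of Arpc1a (-0.025), Msn (-0.36) and Tmod3 (-0.22) did. Pfn1 held rank 2 in every library, so its quantile-normalized change was 0 by construction. Without 1 library at a time, the log2 change ran from 1.74 to 3.61 for Capg, from 0.93 to 1.44 for Arpc5 and from 0.85 to 1.27 for Pfn1, and the median of the 9 from 1.27 to 1.69. Apart from Msn, no gene of the 17 lost its call without a library. WT and JHT libraries with the same title number correlated in their deviations by 0.168, 0.0305 and 0.107. Libraries with different numbers correlated by -0.133 to 0.0306, so the values for numbers 1 and 3 were the highest of all. The titles do not name pairs, and the main fit used none. The replicate block left the count at 9 of 9.

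Depth was no limit for 8 of the 9 genes, each with at least 611 reads in every library, whereas Capg rested on 0 reads in WT-1. The table holds selected genes only, and no scaling was checked against unselected genes.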
